A study of Mus musculus with 6 samples.

Results

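The genes described here encode 10 membrane hydrolases of the intestinal brush border: the disaccharidases Lct, Mgam, Sis and Treh, and the peptidases Anpep, Dpp4, Enpep, Mme, Mep1a and Mep1b. They were taken by gene symbol from a table of 54532 genes, each symbol matched 1 row, and all 10 were among the 16313 genes with enough counts to be tested. The table holds polyA RNA-seq counts of intestinal epithelium from mice labelled Apoe-/-, which lack functional apolipoprotein E by that label and are prone to atherosclerosis. A group of 3 libraries came from mice given the yeast Candida albicans by gavage every 3 days for 2 weeks, and 3 came from mice given phosphate-buffered saline (PBS) on the same schedule, with the Apoe-/- label shared by both groups. The comparison asks how repeated oral exposure to the yeast changes expression in the gut epithelium of these mice. Age, sex, the segment of intestine and the number of mice behind each library are not stated in the labels, so p-values measure the spread between libraries, which may be partly technical.

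Brush border hydrolases sit on the microvilli of absorptive enterocytes with their catalytic domains facing the gut lumen, and they carry out the last steps of carbohydrate and protein digestion beside the transporters that take up the products. Disaccharidases release glucose, galactose or fructose from lactose, starch fragments, sucrose and trehalose. Peptidases trim dietary peptides to amino acids, dipeptides and tripeptides, and some also cut peptide hormones. Their genes are switched on as cells leave the crypt and mature on the villus, under factors of the CDX, GATA and HNF4 families.

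Promoter sequences are shown for the 4 disaccharidases, which include the member with the largest difference between groups (Lct), and for Anpep, the most highly expressed peptidase, so that the sequences can be set beside the values. Each runs from 250 bases before the RefSeq start to the 50 bases from it on, 5′ to 3′ on the strand of the gene, in build GRCm38.p6. Capitals mark matches on either strand to the CDX core TTTAT, the GATA core AGATAA or the TATA box TATAAA. The TATA box read on the opposite strand always contains the CDX core, and adjacent matches run together in the print. The regions are chr1:128328269-128328568 (minus strand) for Lct, chr6:40628581-40628880 (plus strand) for Mgam, chr3:72967814-72968113 (minus strand) for Sis, chr9:44672983-44673282 (plus strand) for Treh and chr7:79848161-79848460 (minus strand) for Anpep.
Lct: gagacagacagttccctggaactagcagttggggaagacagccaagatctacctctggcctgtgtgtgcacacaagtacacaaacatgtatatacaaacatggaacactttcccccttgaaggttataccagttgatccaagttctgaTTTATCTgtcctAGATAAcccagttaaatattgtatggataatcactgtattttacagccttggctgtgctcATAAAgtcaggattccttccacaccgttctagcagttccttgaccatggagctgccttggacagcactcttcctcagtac
Mgam: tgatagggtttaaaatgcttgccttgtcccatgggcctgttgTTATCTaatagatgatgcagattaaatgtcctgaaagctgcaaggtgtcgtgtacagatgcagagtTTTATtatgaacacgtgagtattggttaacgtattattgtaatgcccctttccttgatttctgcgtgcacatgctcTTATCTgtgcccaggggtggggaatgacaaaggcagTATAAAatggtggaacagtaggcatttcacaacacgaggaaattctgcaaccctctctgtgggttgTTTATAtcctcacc
Sis: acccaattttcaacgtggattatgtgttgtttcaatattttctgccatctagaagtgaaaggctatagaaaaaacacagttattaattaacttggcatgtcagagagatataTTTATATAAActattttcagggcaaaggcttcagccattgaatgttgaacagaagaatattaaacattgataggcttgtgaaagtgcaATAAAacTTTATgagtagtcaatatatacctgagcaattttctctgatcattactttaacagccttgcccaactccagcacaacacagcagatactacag
Treh: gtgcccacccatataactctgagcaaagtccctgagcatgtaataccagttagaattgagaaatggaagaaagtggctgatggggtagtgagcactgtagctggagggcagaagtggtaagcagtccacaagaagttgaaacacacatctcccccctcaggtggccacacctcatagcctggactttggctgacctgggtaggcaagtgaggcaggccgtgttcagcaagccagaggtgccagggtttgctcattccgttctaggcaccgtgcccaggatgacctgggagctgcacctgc
Anpep: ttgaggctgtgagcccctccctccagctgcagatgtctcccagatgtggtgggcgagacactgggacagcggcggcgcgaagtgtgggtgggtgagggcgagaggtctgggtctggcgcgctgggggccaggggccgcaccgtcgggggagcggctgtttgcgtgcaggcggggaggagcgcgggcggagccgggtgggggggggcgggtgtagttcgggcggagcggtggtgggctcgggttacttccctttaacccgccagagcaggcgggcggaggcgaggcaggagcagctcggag

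RefSeq promoters were matched for 9 of the 10 members, as 11 sequences, since Mme has 3 listed starts. The CDX core was found in promoters of 6 of the 9 genes (Lct, Mgam, Sis, Dpp4, Enpep and Mep1a), which is 6 of the 11 sequences. It was found in 40.0% of all 32851 promoters of the same length and in 26.9% of the 14557 promoters of genes tested here. The GATA core was found in 3 of the 11 sequences (Lct, Mgam and Dpp4), against 11.2% of all promoters and 6.94% of those of tested genes. The TATA box was found in 4 of the 11 (Mgam, Sis, Dpp4 and Enpep), against 13.6% of all promoters and 8.0% of those of tested genes. In Lct a TTTAT at -102 to -98 overlapped a GATA match at -101 to -96, and a further GATA match lay at -90 to -85, counted from the start. Treh and Anpep held none of these letters in the window, and their GC content was 54.7% and 72.3%, against 34.0% for Sis and a median of 52.7% over all promoters. The Anpep window, 79848161 to 79848460, lies inside the coordinates of the gene, whose 5′ end on the minus strand is at 79861059. The start used in these libraries was not tested. A match describes the sequence and does not show that a factor binds there. Motifs of other factors, the HNF families among them, were not searched.

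Library totals lay between 23209209 and 24883060 counts in the Candida albicans group and between 21406930 and 24891735 in the PBS group, and every pair of libraries differed by more than counting noise (a chi-square of at least 35.1 times its degrees of freedom). Levels are given as CPM, the count divided by the TMM-scaled library total and multiplied by 1e+06. Apoe itself was counted in every library, at 51.8 to 76.0 CPM in the Candida albicans group and 59.2 to 106 CPM in the PBS group, so these gene-level counts do not show a loss of the transcript; the position of the Apoe alteration is not stated in the labels. The label of intestinal epithelium was met by the epithelial marker Epcam (3305 to 3743 CPM with Candida albicans and 1500 to 2318 CPM with PBS). The ileal marker Fabp6 was present throughout, at 605 to 2838 CPM with Candida albicans and 1025 to 2844 CPM with PBS. The colonic marker Aqp8 stayed at or under 0.339 CPM in all libraries. Another colonic marker, Car1, stayed at or under 1.82 CPM in 5 libraries but reached 110 CPM in Candida albicans replicate 3. These libraries also held RNA of the gut wall in very different amounts, given beside the results below.

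All 10 hydrolase genes had more CPM in each of the 3 Candida albicans libraries than in any of the 3 PBS libraries. Lct had the largest fitted difference among them, at 6.89-fold, and Mme followed at 4.58-fold, while the other members lay between 2.18-fold (Enpep) and 3.37-fold (Treh). None of the 10 reached an adjusted p under 0.05 over all genes. In bulk tissue more enterocytes and more RNA of these genes per enterocyte cannot be told apart.

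Lct encodes lactase, which splits milk sugar and in mammals declines after weaning (ENSMUSG00000026354, chromosome 1, 128284756 to 128328318, minus strand, mm10). Its level was 2028, 1942 and 975 CPM in Candida albicans replicates 1 to 3, against 398, 219 and 99.6 CPM in PBS replicates 1 to 3. The groups were well apart, with the lowest Candida albicans library 2.45 times the highest PBS library. Candida albicans replicate 3 stood below its 2 partners, which were close to each other. The log2 fold change was 2.79 (SE 0.56, edgeR quasi-likelihood test, unadjusted p = 0.00212, adjusted p = 0.078). It was 3.48 without PBS replicate 1 and 2.43 without PBS replicate 3.

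Sis encodes sucrase-isomaltase, which cuts sucrose and the branch points of starch (ENSMUSG00000027790, chromosome 3, 72888557 to 72967863, minus strand). Its level was 5139, 5190 and 4525 CPM with Candida albicans and 2873, 1893 and 780 CPM with PBS. The 3 Candida albicans libraries were nearly level with one another, whereas the PBS libraries spread 3.68-fold between the highest and the lowest. The log2 fold change was 1.42 (SE 0.45, adjusted p = 0.112 in the same edgeR test). Mgam encodes maltase-glucoamylase, the related enzyme that releases glucose from the ends of starch chains (ENSMUSG00000068587, chromosome 6, 40628831 to 40769123, plus strand). It stood at 5148, 4816 and 4036 CPM with Candida albicans and 2218, 1349 and 1021 CPM with PBS, so the groups did not meet. Its log2 fold change of 1.61 (SE 0.33, edgeR adjusted p = 0.078) had the lowest p of the 10 members, ranking 394 among all genes tested.

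Treh encodes trehalase, which splits trehalose, a glucose disaccharide made by fungi and insects (ENSMUSG00000032098, chromosome 9, 44673233 to 44686305, plus strand). It was the least abundant disaccharidase by CPM, at 412, 411 and 245 CPM with Candida albicans and 154, 113 and 50.3 CPM with PBS. As for Lct, the third Candida albicans library was the low one, and it still lay 1.59 times above the highest PBS library. The log2 fold change was 1.75 (SE 0.43, edgeR adjusted p = 0.0847).

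**Figure D1:**
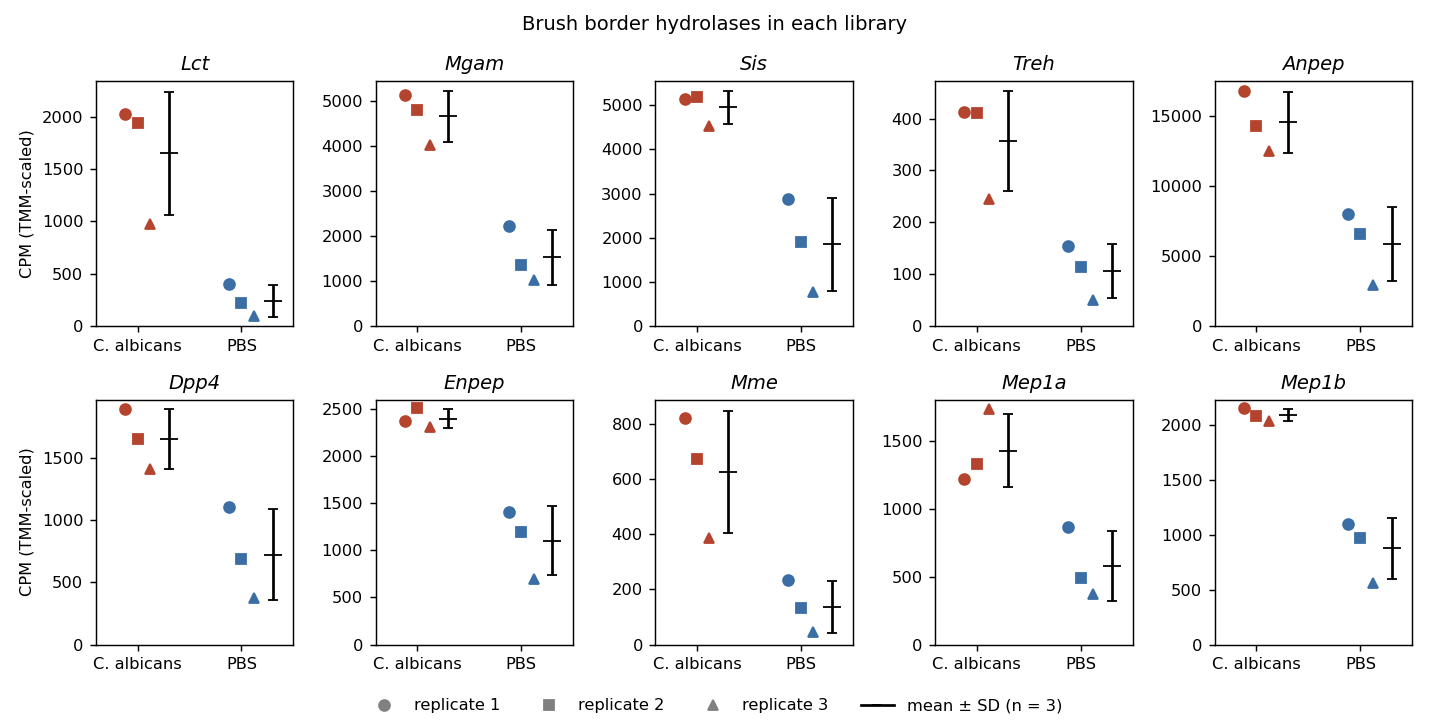
CPM of each of the 10 genes in each library, on axes that start at 0, with the Candida albicans group left and the PBS group right; symbols give the replicate number and black bars the mean ± SD of 3 libraries. In all 10 panels the Candida albicans libraries lie above the PBS libraries, by a factor of 1.28 (Dpp4) to 2.45 (Lct) between the nearest pair.

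Among the exopeptidases, Anpep encodes aminopeptidase N, which removes neutral residues from the start of a peptide (ENSMUSG00000039062, chromosome 7, 79821803 to 79861059, minus strand). It was the most abundant member, with 16820, 14330 and 12490 CPM with Candida albicans and 8025, 6596 and 2947 CPM with PBS. By raw count it ranked between 2 and 4 among all genes in the Candida albicans libraries and between 4 and 13 in the PBS libraries. The log2 fold change was 1.31 (SE 0.40, edgeR adjusted p = 0.105). Enpep encodes aminopeptidase A, which removes acidic residues (ENSMUSG00000028024, chromosome 3, 129269175 to 129332720, minus strand). It had 2374, 2506 and 2302 CPM with Candida albicans and 1408, 1195 and 698 CPM with PBS, without overlap. Its log2 fold change of 1.12 (SE 0.28, edgeR adjusted p = 0.0849) was the smallest fitted difference of the 10, on a tight Candida albicans group (coefficient of variation 4.32%).

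Dpp4 encodes dipeptidyl peptidase 4, which removes dipeptides behind proline or alanine and inactivates incretin hormones (ENSMUSG00000035000, chromosome 2, 62330073 to 62412231, minus strand). It had 1890, 1651 and 1406 CPM with Candida albicans and 1101, 687 and 375 CPM with PBS. PBS replicate 1 came close to the Candida albicans group, and the nearest libraries differed by a factor of 1.28, the narrowest gap of the 10 genes. The log2 fold change was 1.19 (SE 0.39, edgeR adjusted p = 0.115).

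The endopeptidases cut inside peptide chains. Mme encodes neprilysin, which is also made by stromal and lymphoid cells (ENSMUSG00000027820, chromosome 3, 63241537 to 63386030, plus strand). It had 822, 671 and 385 CPM with Candida albicans and 232, 132 and 45.7 CPM with PBS. Both groups spread widely, 2.14-fold within Candida albicans and 5.09-fold within PBS, without overlapping. The log2 fold change was 2.19 (SE 0.61, edgeR adjusted p = 0.0944). It was 2.92 without PBS replicate 1 and 1.79 without PBS replicate 3.

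Mep1a and Mep1b encode meprin alpha and meprin beta, astacin metalloproteases; beta is membrane-bound and in the mouse intestine also releases the mucin Muc2 from goblet cells. Mep1a (ENSMUSG00000023914, chromosome 17, 43474324 to 43502812, minus strand) had 1220, 1330 and 1733 CPM with Candida albicans and 864, 490 and 373 CPM with PBS. It was the only member that was highest in Candida albicans replicate 3. Its log2 fold change was 1.31 (SE 0.34, edgeR adjusted p = 0.0881). That value was 1.95 when replicate 1 of both groups was left out and 1.05 with library totals in place of TMM scaling. Mep1b (ENSMUSG00000024313, chromosome 18, 21072344 to 21100199, plus strand) had 2152, 2078 and 2040 CPM with Candida albicans and 1096, 968 and 564 CPM with PBS. Its Candida albicans libraries were the closest of any member (coefficient of variation 2.73%), and the log2 fold change was 1.25 (SE 0.27, edgeR adjusted p = 0.0786).

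**Figure D2:**
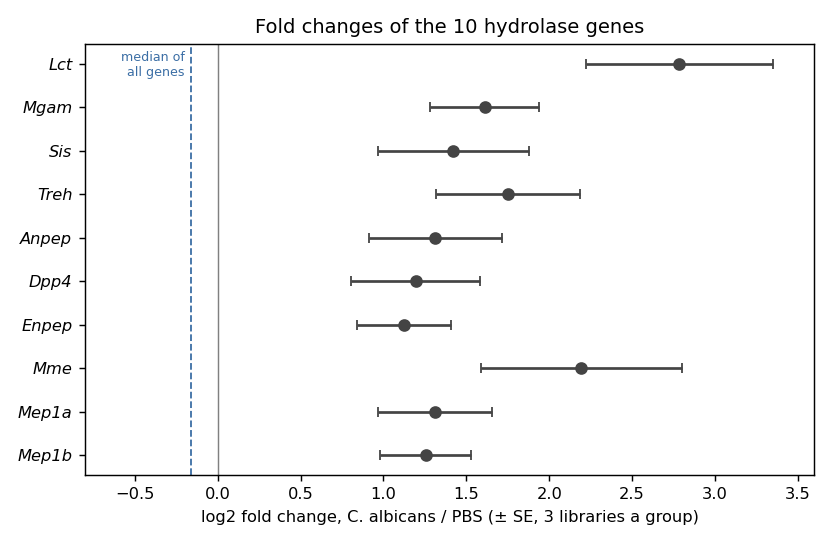
Fitted log2 fold change of each gene, Candida albicans over PBS, with its standard error (3 libraries a group); the dashed line is the median of all genes tested, -0.16. The 10 values lie between 1.12 (Enpep) and 2.79 (Lct), all to the right of that line.

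Counted together, 0 of 10 members passed an adjusted p under 0.05 in edgeR's quasi-likelihood test, as did 0% of all 16313 genes (0 genes, the smallest adjusted p being 0.054). At an unadjusted p under 0.05, 4827 genes were called, 2182 higher and 2645 lower; 10 of 10 members were among the higher ones, against 13.4% of all genes. At an adjusted p under 0.1, 7 of 10 members were higher, against 6.61% of all genes (6.04% were lower), and the other 3 (Sis, Anpep and Dpp4) had 0.105 to 0.115. The groups did not overlap, with Candida albicans higher, for 10 of 10 members and for 17.6% of all genes. A fitted difference of 2-fold or more upward was found for 10 of 10 members and for 4.33% of all genes. Under some of the other settings described below, Dpp4, Enpep and Mep1b fell below 2-fold. Their lowest log2 fold changes were 0.90 for Dpp4 (without PBS replicate 3), and 0.85 for Enpep and 0.99 for Mep1b (both with library totals). The members' median log2 fold change was 1.37, beside -0.16 over all genes tested.

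The call at 0.05 depended on the tool and on PBS replicate 1. The DESeq2 Wald test called 10 of 10 members higher (10.7% of all genes), limma-voom called 0, and limma-voom with sample quality weights called 10 (7.55%). Without PBS replicate 1 edgeR called 9 of 10 (10.1% of all genes), with Anpep at an adjusted p of 0.0516, while leaving out any other library called 0. With the replicate number as a block 9 of 10 were called (6.31% of all genes), and with replicate 1 of both groups left out 5 of 10 (7.02%). With no count filter 2 of 10 were called (1.02%). Library totals, pan-epithelial scaling and a minimum mean of 5 CPM called 0 of 10, beside 0.0858%, 0.00613% and 0.0956% of all genes. The 10 log2 fold changes were positive under every one of the 17 other settings tried, and their adjusted p over those settings reached from 4.18e-06 to 0.266.

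Compared per length, as RPKM (CPM per kilobase of the length given in the table), the order of the genes was led by Anpep in both groups, with 3518 ± 525 RPKM in Candida albicans and 1416 ± 633 RPKM in PBS libraries (SD, n = 3 each). Mep1b came next at 914 ± 24.9 RPKM with Candida albicans and 383 ± 122 RPKM with PBS. In the Candida albicans group Sis (663 ± 49.6 RPKM) followed, and each of these 3 genes lay clear of the one below it. Mgam (536 RPKM), Enpep (509 RPKM) and Mep1a (414 RPKM) formed a run in which neighbouring ranges overlapped. Mep1a lay clear of Dpp4 (261 RPKM), which did not differ from Lct (257 ± 91.3 RPKM) beyond their spread, and neither did Lct from Treh (174 RPKM). Mme closed the order at 54.2 ± 19.2 RPKM. In the PBS group only Anpep was separated from its neighbour by more than the range of the libraries. There Lct stood at 37.3 ± 23.5 RPKM, under Treh at 51.6 ± 25.5 RPKM in 3 of 3 libraries, whereas with Candida albicans Lct was above Treh in 3 of 3.

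In all, the 10 genes took 3.32%, 3.14% and 2.86% of the counts in Candida albicans replicates 1 to 3, against 1.95%, 1.46% and 0.818% in PBS replicates 1 to 3. The groups did not meet. The 4 disaccharidases held 1.05% ± 0.106 with Candida albicans and 0.404% ± 0.186 with PBS, and the 6 peptidases 2.05% ± 0.14 with Candida albicans and 1.01% ± 0.387 with PBS (SD, n = 3 each).

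**Figure D3:**
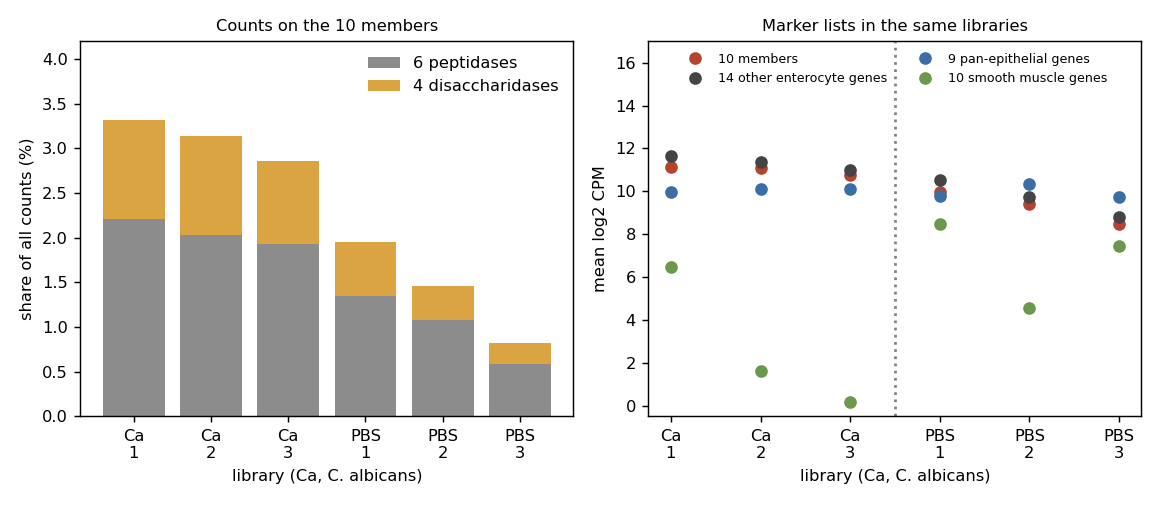
Left, the percentage of each library's counts that fell on the 6 peptidases (grey) and the 4 disaccharidases (yellow); right, the mean log2 CPM of the members, of 14 other enterocyte genes, of 9 pan-epithelial genes and of 10 smooth muscle genes in the same libraries. The members take 2.86% to 3.32% in the Candida albicans libraries and 0.818% to 1.95% in the PBS libraries, and their mean runs beside that of the other enterocyte genes.

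The members varied among PBS libraries in the same order. PBS replicate 1 was the highest PBS library and PBS replicate 3 the lowest for 10 of 10 genes, and the ratio of highest to lowest ranged from 1.94 (Mep1b) to 5.09 (Mme). Among Candida albicans libraries replicate 3 was the lowest for 9 of 10 genes, with Mep1a the exception, and the ratio ranged from 1.06 (Mep1b) to 2.14 (Mme). The coefficient of variation was larger in PBS for 10 of 10 genes, at 31.7% to 68.3% with PBS and 2.73% to 35.5% with Candida albicans. Lct, Mme and Treh had the largest spread within the Candida albicans group, all through replicate 3. In that library ileal markers (Fabp6, Slc10a2, Fgf15 and Osr2) summed to 3585 CPM, beside 896 and 1275 CPM in the other 2 Candida albicans libraries and 1326 to 3658 CPM in PBS libraries. Lactase is known as a gene of the proximal small intestine. Markers of that segment summed to 1708, 1201 and 847 CPM in Candida albicans replicates 1 to 3 and 472, 414 and 322 CPM in PBS replicates 1 to 3, without overlap. Of its 7 tested genes, 4 had positive log2 fold changes and 3 negative ones. Fabp1, a fatty acid binding protein that is also among the enterocyte genes described below, gave most of the sum, at 555 to 1288 CPM with Candida albicans and 125 to 228 CPM with PBS (log2 fold change 2.23, SE 0.38). The incretin gene Gip had a log2 fold change of 0.95 (SE 0.21) without overlap. Gata4 had 1.08 (SE 0.38) and Adh6a 0.88 (SE 0.35), both with overlap. The 3 negative genes were Onecut2 at -1.12 (SE 0.60), Cybrd1 at -0.70 (SE 0.85) and Slc40a1 at -0.26 (SE 0.70), each with overlapping groups. The part of segment differences in the values of Lct and the other members was not tested.

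**Figure D4:**
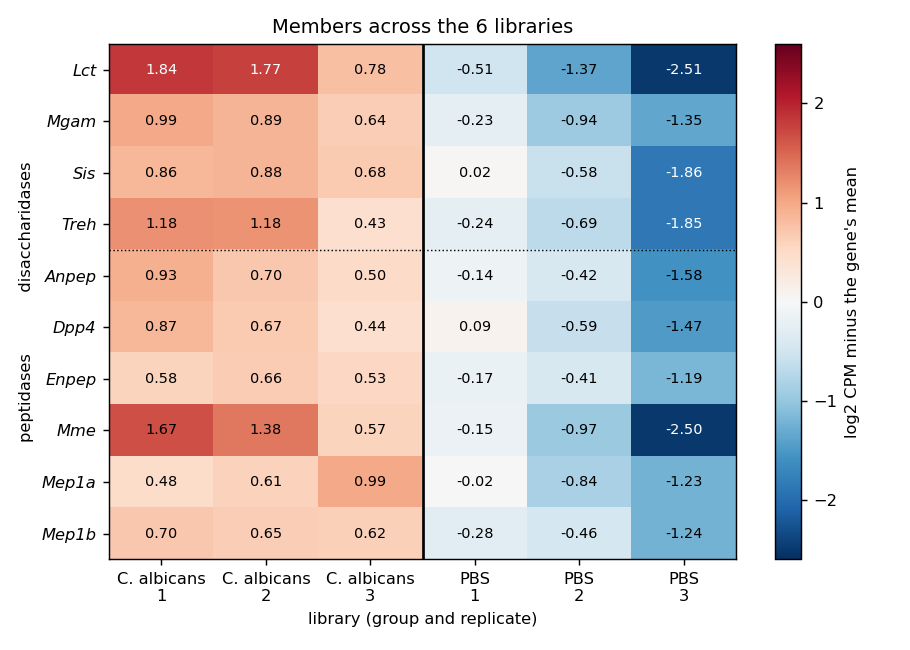
Log2 CPM of each gene minus its own mean over the 6 libraries, as numbers and colours (red above, blue below the mean), with the Candida albicans libraries left of the line. The column of PBS replicate 3 is the lowest for every gene, from -1.19 (Enpep) to -2.51 (Lct), and PBS replicate 1 lies nearest to the Candida albicans libraries.

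Ratios between 2 genes of 1 library, which do not depend on scaling, showed how far members kept step. The log2 ratio of Lct to Sis counts was -1.34, -1.42 and -2.21 in Candida albicans replicates 1 to 3 and -2.85, -3.11 and -2.97 in PBS replicates 1 to 3. The groups did not overlap, and their means differed by 1.32, with an exact two-sided permutation p = 0.1, the smallest that 3 libraries against 3 allow (adjusted p = 0.4 over the 4 ratios compared). Lct thus took a larger share of the pair's counts in each Candida albicans library. The other 3 ratios overlapped between groups. Mgam to Sis averaged -0.09 ± 0.0852 with Candida albicans and -0.16 ± 0.476 with PBS (exact permutation p = 1). Mep1b to Mep1a averaged 0.57 ± 0.3 with Candida albicans and 0.64 ± 0.322 with PBS (exact permutation p = 0.8). Enpep to Anpep averaged -2.59 ± 0.204 with Candida albicans and -2.35 ± 0.237 with PBS (exact permutation p = 0.4). These p-values do not show that the genes of these 3 pairs differ alike between groups.

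Markers of other cell types differed between the same libraries. Smooth muscle genes were lower in mean with Candida albicans for 10 of 10 markers, though no marker's groups were apart. Of all 16313 genes, 9863 had a negative log2 fold change. The smooth muscle genes summed to 206 to 1792 CPM in Candida albicans and 524 to 7055 CPM in PBS libraries. Fibroblast markers were lower for 8 of 8, summing to 9.16 to 169 CPM with Candida albicans and 93.2 to 684 CPM with PBS. Tuft cell markers were lower for 6 of 6 tested, without overlap, where 18.1% of all genes tested were lower without overlap. They summed to 45.2 to 76.0 CPM with Candida albicans and 183 to 233 CPM with PBS. T cell, B and plasma cell and myeloid markers overlapped in their summed levels. The smooth muscle marker Acta2 stayed above 0 in all 6 libraries, down to 0.382 CPM in Candida albicans replicate 3. PBS replicate 1 had the highest smooth muscle level of all (a mean of 8.46 log2 CPM) and the highest hydrolase levels among PBS libraries. The other PBS libraries went the other way. Replicate 3 had more smooth muscle than replicate 2 (7.43 against 4.56) and a lower share of hydrolases (0.818% against 1.46%). Candida albicans replicate 1 had the highest smooth muscle level of its group (6.47) and the highest summed share of hydrolases. Mitochondrially encoded genes took 3.19% to 4.63% of counts with Candida albicans and 5.89% to 8.92% with PBS. The part of gut wall RNA and of the mitochondrial share in the result was not tested.

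The pan-epithelial genes, which mark epithelium of any maturity, did not separate the groups as a list. Their log2 fold changes were above 0 for 6 of 9 and below 0 for 3, and the median was 0.14. Their mean was 10.1 ± 0.0711 log2 CPM with Candida albicans and 9.96 ± 0.323 with PBS (SD, n = 3 each). Taken singly, Epcam, Cldn7 and Spint1 were higher without overlap, and Krt18 was lower without overlap (log2 fold change -1.42, SE 0.37). That is 3 higher and 1 lower of 9, beside 17.6% and 18.1% of all genes. Scaling the libraries by all 9 pan-epithelial genes in place of TMM left the members between 1.02 and 2.67 on the log2 scale, with 0 of 10 called. Crypt and cycling markers had a negative log2 fold change for 8 of 10, where 9863 of all 16313 genes had one. Mki67 and Cdk1 were lower without overlap (2 of 10, beside 18.1% of all genes), while Ascl2 and Axin2 were positive. The 10 markers summed to 266 to 482 CPM with Candida albicans and 398 to 579 CPM with PBS, with overlap. Of the 14 other enterocyte genes, 14 had a positive log2 fold change, where 6450 of all 16313 genes had one. The median of the 14 was 1.41, beside 1.37 for the hydrolases. The mean log2 CPM of the 10 hydrolases minus that of these 14 genes was -0.48, -0.31 and -0.22 in Candida albicans replicates 1 to 3 and -0.55, -0.33 and -0.32 in PBS replicates 1 to 3. The hydrolases were below the other enterocyte genes in 6 of 6 libraries, by amounts that overlapped between the groups. Among villus tip markers the groups overlapped for 6 of 6 genes (median 0.93), and Nt5e had 241 CPM in PBS replicate 1, above the 143 to 217 CPM of the Candida albicans libraries.

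Other hydrolases of the brush border had positive log2 fold changes in 13 of 15 tested genes, with a median of 1.08. At an unadjusted p under 0.05, 10 were higher and 2 lower, beside 13.4% and 16.2% of all genes, and 0 passed the adjusted threshold. Xpnpep2, an aminopeptidase that acts before proline, had a log2 fold change of 1.44 (SE 0.37), Naaladl1, a peptidase of the same surface, 0.95 (SE 0.25), and Ggt1, which starts the breakdown of glutathione, 1.08 (SE 0.31). Tmprss15, the enteropeptidase that activates trypsinogen in the duodenum, went the other way at a very low level, with 2, 0 and 0 counts with Candida albicans and 12, 55 and 64 counts with PBS. Akp3, an intestinal phosphatase, was the other lower gene, at 0.975 to 4.30 CPM with Candida albicans and 3.48 to 22.4 CPM with PBS, with overlapping groups, and was chosen after its values were seen.

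Transporters that take up the products of these enzymes had 13 of 14 positive log2 fold changes, with a median of 1.34. At an unadjusted p under 0.05, 13 were higher and 0 lower, beside 13.4% and 16.2% of all genes, and 0 passed the adjusted threshold. Slc6a20a, a proline transporter, had 336, 284 and 392 CPM with Candida albicans and 181, 118 and 126 CPM with PBS (log2 fold change 1.25, SE 0.22). Slc3a1 and Slc7a9, the subunits of the transporter for cystine and basic amino acids, stood at 1.46 (SE 0.34) and 0.67 (SE 0.17) on the log2 fold change scale. Slc5a4a, a relative of the sodium-glucose transporter, had 2.30 (SE 0.60). Slc6a19, the main transporter of neutral amino acids, had 1.60 (SE 0.52) and was chosen after its values were seen. Slc1a1, an acidic amino acid transporter, was the exception at -0.41 (SE 0.26), with overlapping groups, and was chosen after its values were seen.

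Cytosolic peptidases, which finish the digestion of absorbed peptides, were divided. At an unadjusted p under 0.05 there were 6 of 13 higher genes and 1 lower one (13.4% and 16.2% of all genes), 0 passed the adjusted threshold, and the median log2 fold change was 0.19. Lap3, a leucine aminopeptidase, had 1059, 972 and 644 CPM with Candida albicans and 367, 310 and 206 CPM with PBS (log2 fold change 1.60, SE 0.29). Pepd, which splits dipeptides that end in proline, had 1.44 (SE 0.30), Xpnpep1 1.01 (SE 0.24) and Lta4h, an aminopeptidase that also makes a leukotriene, 0.77 (SE 0.14). By contrast Dpp8 and Dpp9, cytosolic relatives of Dpp4, had -0.02 (SE 0.12) and -0.10 (SE 0.12), and Tpp2 had -0.06 (SE 0.10), with overlapping groups for each. These 3 were chosen after their values were seen.

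Relatives of the members that are not brush border enzymes often had too few counts to test. The test took in 10 of 21, and their median log2 fold change was 0.09. Erap1, an aminopeptidase of the endoplasmic reticulum, had 0.45 (SE 0.10), and the alpha-glucosidases Ganc, Ganab and Gaa, the last of them lysosomal, had 0.74 (SE 0.28), 0.31 (SE 0.12) and -0.43 (SE 0.17). Bmp1, an astacin protease like the meprins, had the largest positive value of the list at 1.21 (SE 0.52). Its unadjusted p was 0.0565 in edgeR's test. The largest negative values were -3.11 (SE 1.48) for Dpp6 and -2.98 (SE 1.76) for Dpp10, with overlapping groups and at most 9.03 CPM. Bmp1, Dpp6 and Dpp10 were chosen after their values were seen. The groups did not overlap for Erap1, Ganc, Ganab, Gaa and Bmp1. These are 5 of 10 genes, 4 higher and 1 lower, beside 35.6% of all genes in either direction. Of the 10, 0 passed the adjusted threshold.

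Proteins that carry hydrolases to the apical surface had small values. All 10 had positive log2 fold changes but the median was 0.34 and the largest 0.70 (Vamp7, SE 0.19). Snap23, Stx3 and Vamp8, fusion proteins of apical vesicles, had 0.56 (SE 0.16), 0.60 (SE 0.18) and 0.28 (SE 0.11). At an unadjusted p under 0.05, 4 of 10 were higher and 0 lower, against 13.4% and 16.2% over all genes, and 0 passed the adjusted threshold.

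Of the 19 tested transcription factors of enterocyte genes, 5 had an unadjusted p under 0.05, each of them higher, where 13.4% of all genes were higher and 16.2% lower. A count of this size in 19 genes is not read as a result about these factors. Their median log2 fold change was 0.35. Hnf4g, a nuclear receptor of villus cells, had 221, 218 and 235 CPM with Candida albicans and 129, 132 and 84.6 CPM with PBS (log2 fold change 0.97, SE 0.19). Gata5 and Gata6 had 0.68 (SE 0.15) and 0.59 (SE 0.13), without overlap, and Maf had 0.71 (SE 0.25). Cdx2, a factor known to act at the Sis and Lct promoters, had 0.17 (SE 0.15), with overlapping groups, and was chosen after its values were seen. Cdx1, of the same family, had -0.75 (SE 0.37), with overlapping groups, and was likewise chosen after its values were seen. None of the 19 passed the adjusted threshold in edgeR's test.

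**Figure D5:**
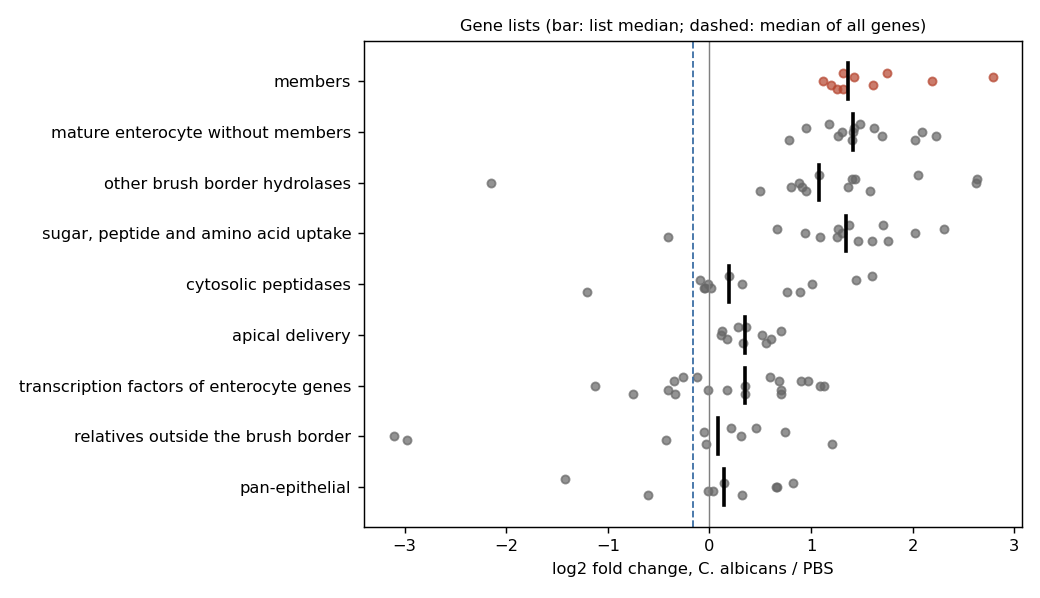
Fitted log2 fold change, Candida albicans over PBS, of each tested gene in 9 lists, with a black bar at the list's median and a dashed line at the median of all genes. The point of Tmprss15 is left out because its Candida albicans counts are 0 to 2. The median of its list (1.08) includes it. Hydrolases, other enterocyte genes and transporters have medians of 1.37, 1.41 and 1.34, where Slc5a1, Slc2a2 and Slc2a5 are in both the enterocyte and the transporter list and Alpi in both the enterocyte and the other hydrolase list, so these medians are not independent; the lists from cytosolic peptidases down have medians of 0.09 to 0.35.

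The genes outside the members whose profile over the 6 libraries was most like the members' mean included Sema6a, Fam118a, Pls1 and Slc43a2. Likeness was the root mean square difference of log2 CPM, each gene centred on its own mean, and it was 0.115 to 0.135 for these 4 genes. Their groups did not overlap. Because the genes were chosen by this likeness, that and their positive log2 fold changes largely follow from the choice and are not further results. Among the members the difference was 0.14 (Sis) to 0.664 (Lct), so Sis was the most typical of the 10 and Lct the least. Sema6a had 172, 136 and 134 CPM with Candida albicans and 79.4, 47.2 and 24.1 CPM with PBS. Pls1, an actin-bundling protein of microvilli, had 1842, 1646 and 1529 CPM with Candida albicans and 890, 617 and 360 CPM with PBS (log2 fold change 1.43, SE 0.34). Slc43a2, an amino acid transporter, had a log2 fold change of 1.58 (SE 0.42).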

How the data were processed

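PolyA RNA was sequenced from 6 libraries, 3 per group, and the authors deposited unnormalized whole-number counts for each Ensembl gene. The submitters' processing notes name HISAT2 2.2.1, Trim Galore 0.6.7 and featureCounts 2.0.1, with build mm10; no source used here states the settings, the strand or the annotation release. The deposited gene length (bases, per the file headers) equals the merged exons of GENCODE M21, on the same assembly, for all members but Mep1b, whose RPKM therefore rests on the deposited length alone. Without a known strand setting, reads of a member and an overlapping antisense gene cannot be told apart: Dpp4 shares 232 exonic bases with Gm13561, which had at most 64 counts in a library, and Treh shares 2 with Phldb1.

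Testing used edgeR 4.0.16 under R 4.3.3: filterByExpr (minimum count 10, minimum total 15), TMM scaling, glmQLFit with robust=TRUE and glmQLFTest, two-sided, Benjamini-Hochberg over all 16313 genes, threshold 0.05. Standard errors come from the F statistic. Log2 CPM used a prior count of 2. A gene with 0 counts could still have up to 0.113 to 0.148 CPM, taking 3 counts as the limit, for counting error only. Ratios were tested by exact permutation. limma 3.58.1 and DESeq2 1.42.0 gave alternatives, together with other scalings, filters, the replicate block and removal of libraries. The scripts were tested on simulated data. The members, lists and tests were chosen with earlier results of these data known. Named genes were all members, up to 4 genes of lowest p per list, and the 5 nearest profiles; others are stated, and some genes that this rule names are not reported here. Promoter sequences are RefSeq's for GRCm38.p6, the assembly of mm10.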

Additional observations from a re-analysis of the deposited data

How the results depend on the processing

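The log2 fold changes of the 10 hydrolase genes kept their sign under all 17 alternative settings, chosen with earlier results of these data known. The count of members called at an adjusted p under 0.05, 0 in the main test, was 2 with no count filter (Mgam and Mep1b, 1.02% of all genes called higher), 10 with the DESeq2 Wald test, 10 with limma-voom with quality weights, 9 with the replicate block (6.31%, all but Mep1a) and 5 with replicate 1 of both groups left out (7.02%). Leaving out 1 library in turn gave 0 to 9 members, and 9 only without PBS replicate 1. For all genes, 0 higher and 0 lower in the main test, the counts were 14 and 174 under library totals only, 1 and 13 with scaling by pan-epithelial genes, 10 and 33 with a minimum mean of 5 CPM, 295 and 257 unfiltered, 1745 and 1166 with the DESeq2 Wald test, 1232 and 1337 with limma-voom with quality weights, 1030 and 1050 with the replicate block, and 1136 and 974 with replicate 1 of both groups left out. They ranged from 0 to 1695 higher and from 0 to 925 lower when 1 library was left out. The cause was not tested. The share of higher genes among those at an unadjusted p under 0.05 was 45.2% in the TMM scaling (median log2 fold change of all genes -0.16), 13.8% with library totals (-0.45), 24.4% with pan-epithelial scaling (-0.28) and 54.5% with DESeq2 size factors (-0.08). The difference in log2 summed CPM of the members, 1.51 in the main scaling, was 1.22 to 1.59 under the other 4.

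Leaving out 1 library in turn, the Lct to Sis difference ranged from 1.16 to 1.60, the Enpep to Anpep difference from -0.32 to -0.11, the Mgam to Sis difference from -0.097 to 0.34 (0.068 with all, -0.039 without PBS replicate 1 and -0.097 without PBS replicate 2), and the Mep1b to Mep1a difference from -0.22 to 0.097 (-0.074 with all, 0.091 without Candida albicans replicate 3 and 0.097 without PBS replicate 2). Within replicate numbers, as a replicate block, the mean differences of the 4 ratios were unchanged by construction (1.32, 0.068, -0.074 and -0.24). Same-numbered libraries are not shown to be pairs: their deviations from the group means correlated at 0.576, 0.357 and 0.0458, and Candida albicans replicate 3 correlated best with PBS replicate 2 (0.408). Depth did not limit the members, whose lowest count was 1150.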
